A study of Mus musculus with 8 samples.

Results

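The genes described here are 7 members of the hyaluronan pathway among the 32285 genes counted in single cells of mouse tongue epithelium. They are the synthases Has1, Has2 and Has3, the hyaluronidases Hyal1 and Hyal2, the hyaluronan-binding protein Cemip, and the receptor Cd44. The 7 genes were found by symbol, and all 7 were present. The set was chosen by knowledge of the pathway and with an earlier result in view, a lower level of Has3 in mice with active YAP alone than in control mice. The Has3 values that set Y or EY libraries against N libraries, and the YAP term over all libraries, are therefore given as a description without a test.

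Hyaluronan is a long sugar polymer of the extracellular matrix. Synthases in the plasma membrane build it from UDP-glucuronic acid and UDP-N-acetylglucosamine and push it out of the cell. Hyaluronidases and lysosomal glycosidases then cut it, and Cd44 holds it at the cell surface. In stratified epithelia, hyaluronan fills the space between basal and spinous keratinocytes, and Cd44 is widely present both on keratinocytes and on leukocytes.

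Every mouse carried the Krt14-CreERT and LSL-rtTA transgenes. Control mice (N) carried no oncogene, E mice added tetON_E6-E7, Y mice added tetON_YAP1S127A, and EY mice carried both. Cre ran from the Krt14 promoter of basal keratinocytes, tamoxifen was injected into the tongue, doxycycline was fed, and cells were taken on day 15. Per the methods, the mice were adult littermates balanced for sex and also carried an H2B-GFP reporter, and sorted viable cells were sequenced from 2 mice per genotype. There were 8 libraries, 2 per group, written as N1, N2 and so on. The title of N2 names a pair of animals and N2 may be a pool.

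Of 42550 deposited cells, 25199 passed the limits on genes, UMIs (unique molecular identifiers, 1 per counted RNA molecule) and mitochondrial RNA. Cells were called epithelial when Krt5, Krt14, Krt15, Krt13 and Krt6a together held at least 0.5% of UMIs and no Ptprc UMI was found. Ptprc, the leukocyte antigen CD45, marked the immune cells. This gave 12957 epithelial cells (170 in EY1 to 4055 in E1), 11218 Ptprc-positive cells (663 to 3949 per library) and 1024 cells in neither class (31 to 254). Epithelial cells held 2454816 UMIs in EY1 and up to 55154619 in E1, so EY1 gave the least precise values. All 8 epithelial markers were detected in the epithelial cells of every library, with summed levels of 4698 to 6018 CPM (counts scaled to 1000000 UMIs of the cell class), and the 5 endothelial markers were each under 1 CPM. Library pairs shared 2 to 19 cell barcodes. Mouse Yap1 stood at 32.8 to 47.8 CPM in the 4 libraries without the YAP transgene and at 165.6 to 451.8 CPM in the 4 with it. Mcm2, a replication gene used to check E6-E7, was at 5.49 and 12.4 CPM in N and at 26.4 to 43.2 CPM in E and EY, but Y2 reached 27.2 CPM.

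The synthases were held by different cells. Of all Has3 UMIs, 96.0% were in epithelial cells, and for Has2 the share was 84.6%. Has1 was the exception among the 7 genes, with 76.5% of its UMIs in the 1024 cells that were in neither class. The hyaluronidases Hyal2 and Hyal1 and the hyaluronan-binding Cemip had 89.9%, 75.9% and 86.2% of their UMIs in epithelial cells. Cd44 was divided between Ptprc-positive cells (52.8%) and epithelial cells (44.6%). These shares depend on how many cells of each class were sorted.

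**Figure D1:**
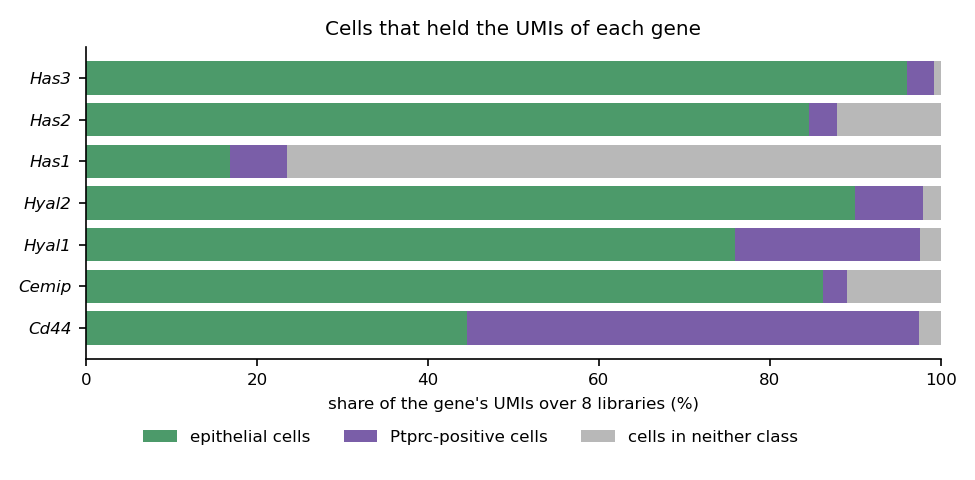
Bars show the percentage of each gene's UMIs, summed over 8 libraries, that lay in epithelial cells, Ptprc-positive cells and cells in neither class. Has3 lay at 96.0% in epithelial cells, Has1 at 76.5% in cells of neither class, and Cd44 was divided between epithelial (44.6%) and Ptprc-positive (52.8%) cells.

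Has3 (ENSMUSG00000031910, GRCm38 chromosome 8, 106870242 to 106884566, plus strand) had more UMIs in epithelial cells than Has1 or Has2 in every library except Y2, where Has2 had 132 and Has3 67. Its level divided the libraries by the YAP transgene. In epithelial cells it was at 18.2 CPM (N1) and 29.5 CPM (N2) in control mice and at 26.3 CPM (E1) and 39.2 CPM (E2) in E mice. It was at 2.53 CPM (Y1) and 3.41 CPM (Y2) in Y mice and at 6.93 CPM (EY1) and 2.13 CPM (EY2) in EY mice. Every Y and EY library was thus below every N and E library, and the N and E libraries overlapped. The means were 28.3 CPM ± 8.71 (SD, n = 4) without the transgene and 3.75 ± 2.18 (SD, n = 4) with it, a ratio of 7.55. In order, the group means were 32.8 CPM ± 9.13 in E, 23.8 ± 8.02 in N, 4.53 ± 3.39 in EY and 2.97 ± 0.617 in Y (SD, n = 2 each). E and N did not differ beyond their spread, nor did EY and Y.

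The fitted log2 fold change of Has3 was -3.02 (SE 0.49) in Y against N and -2.80 (SE 0.55) in EY against N. Across all 8 libraries, in a model with a term for each transgene, the YAP term was -3.07 (SE 0.35). These are descriptions, since their libraries include those of the earlier result. The E and EY libraries took no part in that result, and a comparison between them was added after the data were seen. Its first fit held all 8 libraries, so the N and Y libraries shared in the estimate of spread. Has3 fell by 3.18 on the log2 scale in EY against E (SE 0.55, adjusted p = 0.0176, edgeR quasi-likelihood test over 13555 genes, Benjamini-Hochberg). It was the 1 member of 6 tested that passed in this comparison, in which 16.4% of all genes passed and 8.46% passed as lower. With only the 4 E and EY libraries in the fit the value was -3.14 (SE 0.57, adjusted p = 0.0514), past the threshold no longer, and 2.62% of genes passed. The call was also lost without E1 (adjusted p = 0.0507), without E2 (0.0875) and without EY2 (-2.19, adjusted p = 0.115).

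No difference of Has3 by E6-E7 was detectable. The log2 fold change was 0.39 (SE 0.44, adjusted p = 1) in E against N, and the E6-E7 term was 0.34 (SE 0.33, adjusted p = 0.679). The interaction of the 2 transgenes was -0.17 (SE 0.71, adjusted p = 0.955), with an SE too wide to show that the Y against N and EY against E values were alike. Has1 was left out of the tests by the filter on low counts, so 6 of the 7 members were tested. In Y against N 0 of 6 members passed (0.457% of all genes did), in E against N 0 of 6 (0.243% of all genes), and for the E6-E7 term 0 of 6 (0.406% of all genes). In EY against N and for the YAP term Has3 alone passed, where 18.8% and 8.98% of all genes passed, 9.5% and 3.72% as lower. Has3 was also the 1 member of 6 whose libraries with and without the YAP transgene did not overlap, as was so for 20.1% of all genes tested. With N and Y libraries among them, nothing is read from these last counts.

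**Figure D2:**
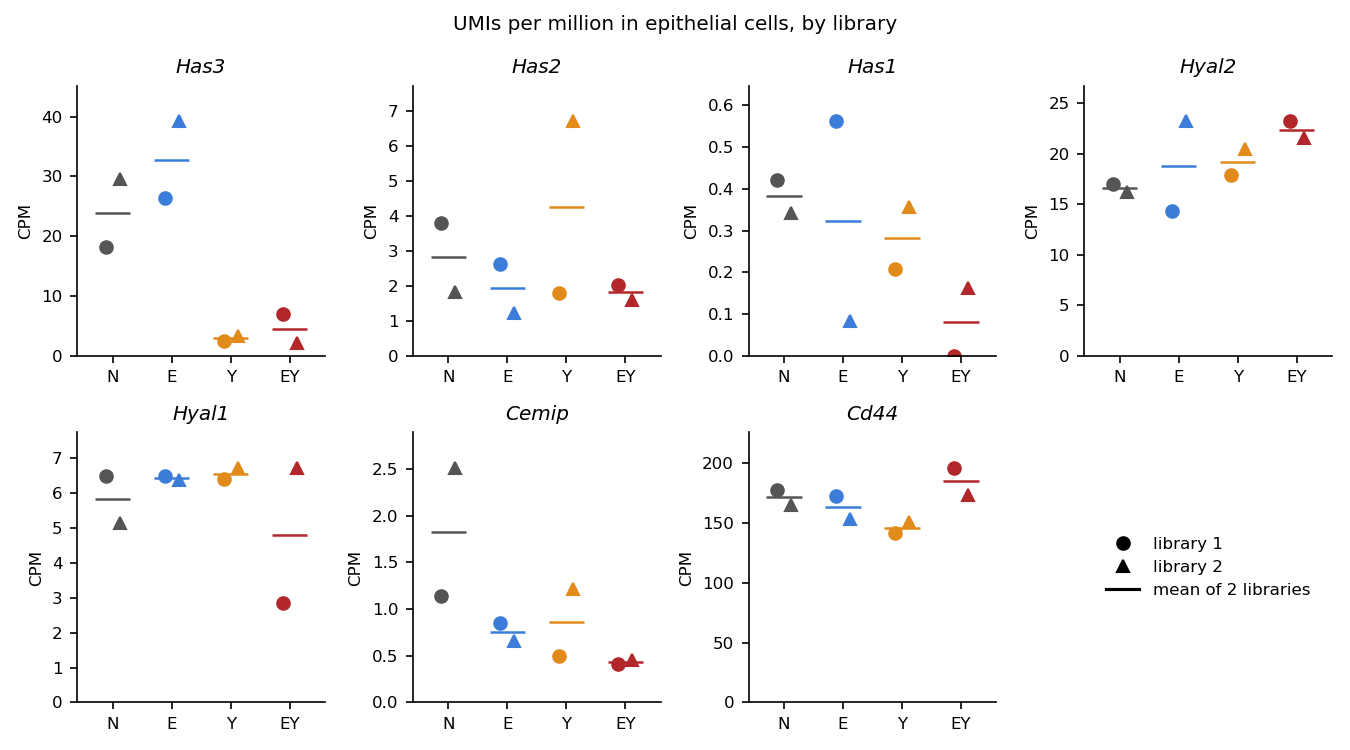
Each panel gives the level of 1 gene in CPM in the epithelial cells of 8 libraries, grouped as N, E, Y and EY, with circles for library 1, triangles for library 2 and a line for the mean. Has3 was at 18.2 to 39.2 CPM in N and E and at 2.13 to 6.93 CPM in Y and EY, while each of the other 6 genes overlapped between libraries with and without the YAP transgene.

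The same UMIs were also counted as the share of epithelial cells that held a Has3 UMI, a description and no separate support. After each cell was thinned to 2000 UMIs, so that depth was equal, 3.83% (95% exact binomial interval 3.21 to 4.53%) of N1 cells, 5.78% of N2, 5.65% of E1 and 6.87% of E2 held a Has3 UMI. With the YAP transgene the shares were 0.233% in Y1, 0.799% in Y2, 1.78% in EY1 (interval 0.368 to 5.10%) and 0.197% in EY2. In Ptprc-positive cells with keratins under the gate, taken for comparison, the thinned share was 0 to 0.467%. The shares of Y1 and EY2 lay within this range, which was taken over all libraries. Within the same library, Has3 CPM was lower in those Ptprc-positive cells than in epithelial cells. It was at 0.222 (7 UMIs) against 2.53 CPM in Y1 and at 0.263 (1 UMI) against 2.13 CPM in EY2. How much of the Has3 in Y1 and EY2 epithelial cells was RNA from other cells was not tested. Without thinning, 20.6 to 47.0% of epithelial cells held a Has3 UMI in N and E and 3.16 to 7.06% in Y and EY, at median depths of 12575 to 23570 UMIs, against 0.09 to 0.775% of the Ptprc-positive cells, at 3373 to 10871 UMIs. At most 17 cells per library were too shallow to thin. The intervals cover counting error only.

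The level of immune markers in epithelial cells moved with the YAP transgene too. The summed level of 20 immune markers in epithelial cells was 64.2 to 88.8 CPM in the 4 libraries without the YAP transgene and 156.7 to 2341 CPM in the 4 with it, highest in EY1, and none of these markers was at 0 in every library. S100a8 and S100a9, which keratinocytes can also express, made up most of it in EY1 (1148 and 905.6 CPM). When cells with over 0.1% immune-marker UMIs were left out, which removed 85 of 170 cells in EY1, the log2 fold change of Has3 was -3.37 (SE 0.50, adjusted p = 0.0191) in EY against E. The fibroblast list had levels of 725.3 to 1227 CPM without and 28.3 to 804.8 CPM with the transgene, nearly all of it Dcn, while Col1a1, Col1a2 and Col3a1 reached at most 2.79 CPM and Lum and Pdgfra were under 1 CPM. In cells of neither class Col3a1 reached 6253 CPM and Dcn 3871 CPM. Whether the Dcn in epithelial cells was fibroblast RNA, and its part in the result, was not tested.

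Has3 varied within the epithelium. Epithelial cells were divided by Krt13, a keratin of suprabasal tongue cells, as its share of the Krt13, Krt5, Krt14 and Krt15 UMIs. In N1 the level of Has3 was 21.2 CPM in cells with a share under 10%, 16.7 CPM between 10 and 50%, and 5.87 CPM over 50%. The same 3 levels were 30.4, 31.2 and 7.81 CPM in N2. They were 30.2, 24.6 and 7.91 CPM in E1, and 39.8, 47.2 and 8.33 CPM in E2. In these 4 libraries the cells richest in Krt13 thus had the lowest Has3. In cells with a share under 10%, Has3 was at 3.68 CPM (Y1) and 4.03 CPM (Y2) in Y mice and at 6.77 CPM (EY1) and 2.42 CPM (EY2) in EY mice, again below all 4 N and E libraries. The lower level with the YAP transgene was thus present among the cells poorest in Krt13. EY1 had only 8 cells with a share over 50% and gives no value there, and N2 and E2 had 30 and 47.

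Within the libraries with the YAP transgene, Has3 was lower in epithelial cells with 2 or more Yap1 UMIs than in cells with none. In Y1, the level was 7.06 CPM (95% exact Poisson interval 4.37 to 10.8) in 202 cells without a Yap1 UMI and 1.29 CPM (0.829 to 1.92) in 935 cells with 2 or more. In Y2 it was 8.46 CPM (5.01 to 13.4) in 123 cells without a Yap1 UMI and 0.817 CPM (0.435 to 1.40) in 789 cells with 2 or more. In EY2 it was 4.13 CPM (2.52 to 6.38) and 1.63 CPM (1.18 to 2.19) in the same 2 classes. In EY1 the levels were 6.61 CPM (1.80 to 16.9, 4 UMIs) and 3.498 CPM (1.14 to 8.16, 5 UMIs), with overlapping intervals. The intervals of this division pool the cells of 1 library. They cover counting error only, not the spread between cells, and are no test. Cells with exactly 1 Yap1 UMI were the highest class in Y2 (22.2 CPM, 36 Has3 UMIs) and EY1 (19.0 CPM, 8 Has3 UMIs). In Y1 and EY2 they lay between the other classes, at 6.29 and 2.78 CPM.

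In the libraries without the transgene, Has3 was not lower in cells with 2 or more Yap1 UMIs. Cells with no Yap1 UMI and cells with 2 or more were at 18.1 and 22.8 CPM in N1. They were at 23.3 (interval 18.5 to 29.0) and 38.1 CPM (29.9 to 47.7) in N2, the 1 library of the 4 whose intervals did not overlap. They were at 25.4 and 27.7 CPM in E1, and at 35.7 and 40.8 CPM in E2. Overlap of these counting intervals, or its absence in N2, is no test of a difference. The level of Has3 in cells without a Yap1 UMI was lower in each of the 4 YAP libraries (4.13 to 8.46 CPM) than in each of the 4 others (18.1 to 35.7 CPM). Cd44 moved little by the same division, with a ratio of 0.955 to 1.13 between cells with 2 or more Yap1 UMIs and cells without. Cells with more Yap1 UMIs were deeper (in EY1 a median of 22575 against 5343.5 UMIs), and the part of depth was not tested. The transgene itself was not analysed here as a feature of its own, and how far its RNA was counted as Yap1 is unknown.

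**Figure D3:**
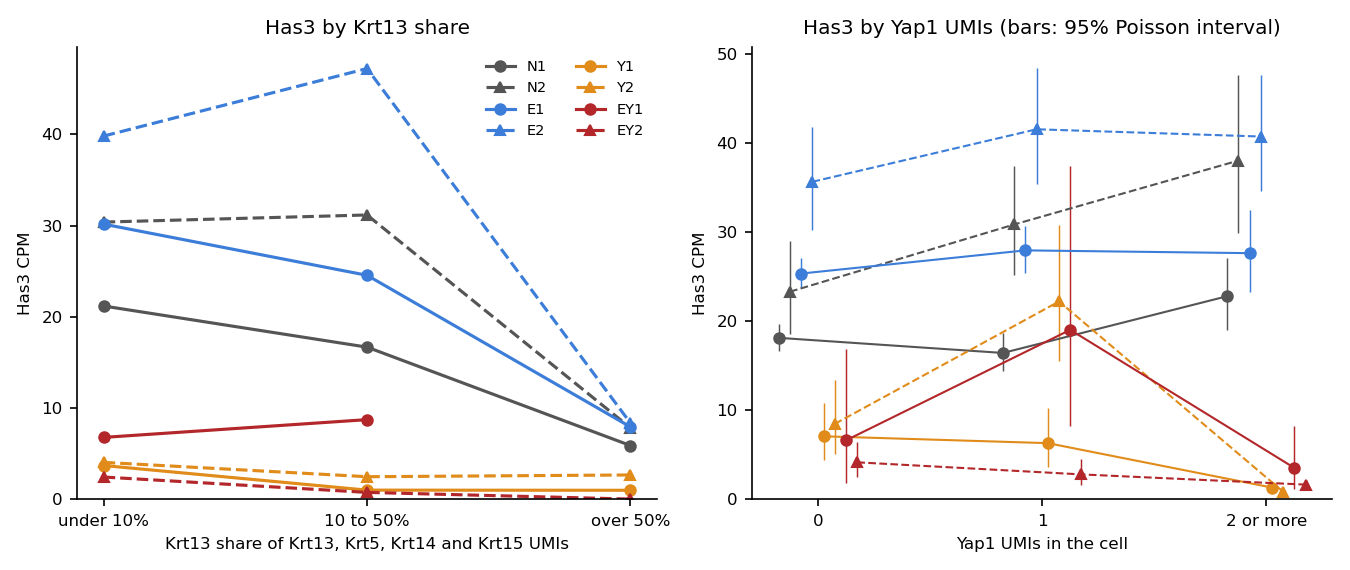
The left panel gives Has3 CPM by the Krt13 share of the epithelial cells, and the right panel Has3 CPM by the Yap1 UMIs in the cell with 95% Poisson intervals, for each of 8 libraries (circles with full lines for library 1, triangles with dashed lines for library 2). Has3 was lowest at a Krt13 share over 50% in N and E, and in Y1, Y2 and EY2 it was lower with 2 or more Yap1 UMIs than with none.

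Has2 (ENSMUSG00000022367, chromosome 15, 56665627 to 56694539, minus strand), the synthase needed for heart formation in the embryo, was low in epithelial cells. It was at 3.81 CPM (N1) and 1.83 CPM (N2) in control mice and at 2.63 CPM (E1) and 1.24 CPM (E2) in E mice. It was at 1.79 CPM (Y1) and 6.71 CPM (Y2) in Y mice and at 2.04 CPM (EY1) and 1.59 CPM (EY2) in EY mice, so that Y2 alone stood above the others. The YAP term was 0.24 (SE 0.47, adjusted p = 0.752), and without Y2 it turned to -0.35. The E6-E7 term was -0.89 (SE 0.47, adjusted p = 0.480). No difference of Has2 beyond the spread between libraries was detectable.

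Has1 (ENSMUSG00000003665, chromosome 17, 17843323 to 17855205, minus strand) was at 0 to 0.562 CPM in epithelial cells, at most 31 UMIs a library, and was not tested. In cells of neither class it was at 126.5 CPM (N1) and 71.3 CPM (N2) in control mice and at 26.3 CPM (E1) and 40.3 CPM (E2) in E mice. In the same class it was at 22.9 CPM (Y1) and 43.8 CPM (Y2) in Y mice and at 13.7 CPM (EY1) and 2.83 CPM (EY2) in EY mice. Both N libraries were the highest and both EY libraries the lowest, on 4 to 124 UMIs a library. The makeup of these cells moved with the groups. Their summed fibroblast markers were 12921 and 12103 CPM in N1 and N2 and 1183 and 1190 CPM in EY1 and EY2. Y2, however, had 16191 CPM of fibroblast markers and Y1 606.2 CPM. Summed immune markers were 5377 to 10445 CPM in N and E and 8245 to 77386 CPM in Y and EY. Whether there were fewer cells with fibroblast markers in this class or less Has1 RNA in each of them was not tested. Has1 was not counted separately in cells with fibroblast markers, and no test was made on 31 to 254 mixed cells.

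Hyal2 (ENSMUSG00000010047, chromosome 9, 107567945 to 107572779, plus strand), a hyaluronidase anchored at the cell surface, lay within a narrow range. It was at 17.0 CPM (N1) and 16.2 CPM (N2) in control mice and at 14.4 CPM (E1) and 23.2 CPM (E2) in E mice. It was at 17.9 CPM (Y1) and 20.4 CPM (Y2) in Y mice and at 23.2 CPM (EY1) and 21.5 CPM (EY2) in EY mice. The YAP term was 0.27 (SE 0.17, adjusted p = 0.288) and the difference of EY against N was 0.44 (SE 0.24, adjusted p = 0.214). The EY libraries lay above the N libraries by less than the test could call. With no upper limit on genes or UMIs per cell Hyal2 was called, with a YAP term of 0.46 (adjusted p = 0.0175). In that setting 6131 of 14816 genes passed for the YAP term, so nothing is read from the call.

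Hyal1 (ENSMUSG00000010051, chromosome 9, 107576927 to 107581710, plus strand), the lysosomal hyaluronidase next to Hyal2 on the chromosome, was between 5.14 and 6.73 CPM in 7 libraries. EY1 was at 2.85 CPM on 7 UMIs. The YAP term was -0.0039 (SE 0.25, adjusted p = 0.993) and the E6-E7 term -0.09 (SE 0.24, adjusted p = 0.894). No difference was detectable at these counts.

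Cemip (ENSMUSG00000052353, chromosome 7, 83932857 to 84086502, minus strand), which binds hyaluronan and takes part in its breakdown, was counted in few molecules. It was at 1.14 CPM (N1) and 2.52 CPM (N2) in control mice and at 0.852 CPM (E1) and 0.661 CPM (E2) in E mice. It was at 0.498 CPM (Y1) and 1.22 CPM (Y2) in Y mice and at 0.407 CPM (EY1) and 0.459 CPM (EY2) in EY mice, on 1 to 57 UMIs a library. Both EY libraries were below both N libraries. The log2 fold change of EY against N was -1.91 (SE 0.71, adjusted p = 0.0915), the E6-E7 term was -1.09 (SE 0.44, adjusted p = 0.425) and the YAP term -0.89 (SE 0.44, adjusted p = 0.201). None passed the threshold. The difference of EY against N passed only with no upper limit on genes or UMIs per cell (-1.94, adjusted p = 0.0120). In that setting 6042 of 14816 genes passed for EY against N, so nothing is read from the call.

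Cd44 (ENSMUSG00000005087, chromosome 2, 102811141 to 102901665, minus strand) was the receptor shared by epithelium and leukocytes. In epithelial cells it was at 177.7 CPM (N1) and 165.6 CPM (N2) in control mice and at 173.1 CPM (E1) and 153.1 CPM (E2) in E mice. It was at 141.7 CPM (Y1) and 150.9 CPM (Y2) in Y mice and at 196.3 CPM (EY1) and 173.9 CPM (EY2) in EY mice. The 4 libraries with the YAP transgene thus spanned those without it. The YAP term was 0.01 (SE 0.13, adjusted p = 0.959) and the E6-E7 term 0.11 (SE 0.13, adjusted p = 0.731). Both Y libraries lay below both N libraries, and both EY libraries lay above both E libraries. How many of all genes show such opposite orders was not counted. The interaction was 0.51 (SE 0.18, unadjusted p = 0.0250 from edgeR, adjusted p = 0.381), so it did not pass. For the interaction 0 genes of 13555 passed with edgeR (0% of all genes), 1562 had an unadjusted p under 0.05, and DESeq2 called 89. By Krt13 share, Cd44 was between 120.1 and 222.3 CPM with no order common to the libraries.

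Cd44 was higher on the CPM scale in Ptprc-positive cells than in epithelial cells of the same library in all 8 libraries. It was at 398.7 CPM (N1) and 409.2 CPM (N2) in control mice and at 329.6 CPM (E1) and 416.7 CPM (E2) in E mice. It was at 401.7 CPM (Y1) and 389.0 CPM (Y2) in Y mice and at 587.5 CPM (EY1) and 299.2 CPM (EY2) in EY mice, the EY pair holding both the highest and the lowest value. Some of these cells also passed the keratin gate. Without such cells Cd44 was at 472.3 CPM (N1), 411.9 (N2), 379.7 (E1) and 421.7 (E2). In the same way it was at 412.6 CPM (Y1), 405.1 (Y2), 589.0 (EY1) and 329.3 (EY2). With all Ptprc-positive cells kept, the YAP term was 0.49 (SE 0.32, adjusted p = 0.457) and the E6-E7 term 0.27 (SE 0.32, adjusted p = 0.869). Without EY1 these were 0.05 and -0.16, so the size of the first and the sign of the second rested on EY1. In this cell class 0 of 13292 genes passed for either term with edgeR (0% of all genes). At an unadjusted p under 0.05 there were 2284 for the YAP term and 797 for the E6-E7 term, and DESeq2 called 875 and 47. Of the 1562 Ptprc-positive cells of EY1, 636 carried Csf3r, the receptor for the neutrophil growth factor G-CSF, and none of C1qa, Cd3e, Cd207 or Ncr1. In the other libraries these were 8 of 663 cells in N1, 83 of 1356 in N2, 30 of 769 in E1, 86 of 936 in E2, 378 of 3949 in Y1, 34 of 1149 in Y2 and 115 of 834 in EY2. The part of these cells in the Cd44 level was not tested.

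When immune cells were divided by a single marker gene, cells with the neutrophil marker Csf3r had the highest Cd44 in each library with a value except E1. In E1 they were at 392.3 CPM and C1qa-positive cells at 434.4 CPM. The means below are over different sets of libraries. Csf3r-positive cells had a mean of 678.0 CPM ± 229.3 (SD over 7 libraries). C1qa-positive cells, a marker of tissue macrophages, had 420.3 ± 68.4 (8 libraries), and Cd207-positive cells, a marker of Langerhans cells, 347.4 ± 85.1 (3 libraries). Cd3e-positive cells, a T cell marker, had 298.1 ± 80.6 (8 libraries) and Ncr1-positive cells, a natural killer cell marker, 274.0 ± 29.2 (4 libraries). The neighbours in this order overlapped from library to library. Values were given only for libraries with at least 20 such cells. Within Csf3r-positive cells, Cd44 was at 899.3 CPM in N2, 392.3 in E1, 867.6 in E2 and 761.9 in Y1. It was at 822.7 CPM in Y2, 672.2 in EY1 and 330.3 in EY2, so E1 and EY2 stood apart from the other 5. Within Cd3e-positive cells EY1 and EY2 were the lowest of 8, at 202.2 and 197.6 CPM, against 267.6 to 425.7 CPM in the other 6. Within Cd3e-positive cells fitted over all genes, the YAP term of Cd44 was -0.25 (adjusted p = 0.703) and the E6-E7 term -0.28 (adjusted p = 0.9996), so neither passed.

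**Figure D4:**
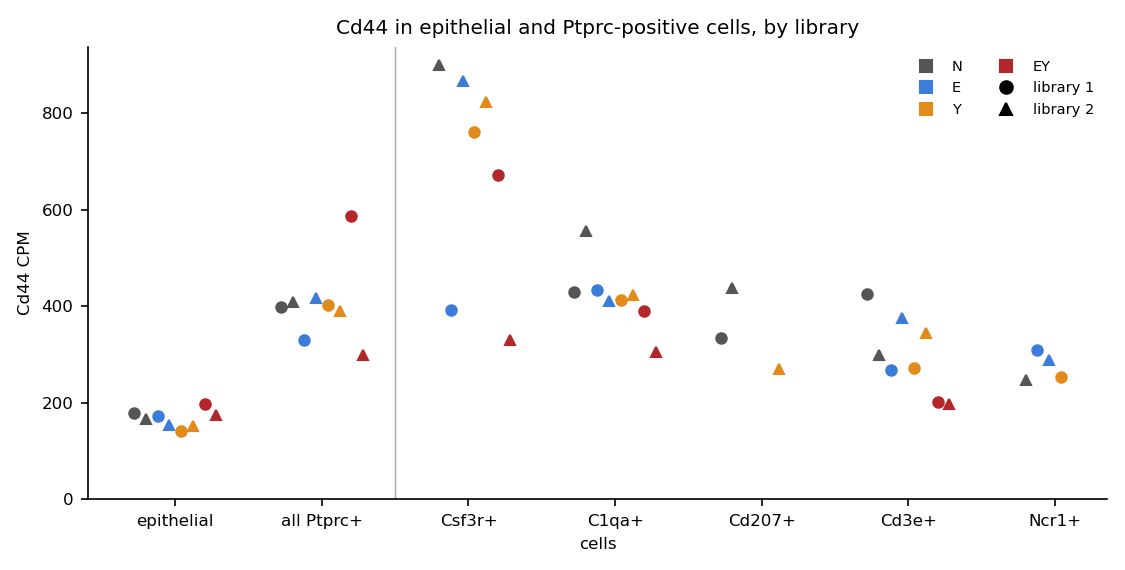
Points give Cd44 in CPM for each library, in epithelial cells, in all Ptprc-positive cells, and right of the line in Ptprc-positive cells that carry 1 of 5 marker genes and none of the other 4. Epithelial cells were at 141.7 to 196.3 CPM and Ptprc-positive cells at 299.2 to 587.5 CPM, with Csf3r-positive cells reaching 899.3 CPM.

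The pathway around the 7 genes was read from 5 lists with 44 genes, 22 of which were counted well enough in epithelial cells to be tested. For the YAP term 2 of the 22 passed as higher and 1 as lower, and for EY against N 2 passed as higher and 2 as lower. For the E6-E7 term 1 passed, as higher. In EY against E 2 passed as higher (Gfpt1 and Msn) and 1 as lower (Ugdh). In E against N and Y against N 0 of 22 passed. The median log2 fold change of the 22 genes for the YAP term was 0.11, beside -0.03 over all genes. The called shares, 3 of 22 for the YAP term and 4 of 22 for EY against N, stand beside the 8.98% and 18.8% of all genes given above. The 3 of 22 in EY against E stand beside 16.4% of all genes, and the 1 of 22 for the E6-E7 term beside 0.406%.

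Genes that make the sugar precursors changed in both directions with the YAP transgene. Ugdh, which makes UDP-glucuronic acid, was at 64.8 CPM (N1) and 60.5 CPM (N2) in control mice and at 54.9 CPM (E1) and 54.8 CPM (E2) in E mice. It was at 42.6 CPM (Y1) and 32.8 CPM (Y2) in Y mice and at 28.1 CPM (EY1) and 17.96 CPM (EY2) in EY mice, all below the N and E libraries. Libraries with and without the YAP transgene did not overlap for 20.1% of all genes tested. Ugdh fell by 0.97 for the YAP term (SE 0.17, adjusted p = 0.0150) and by 1.48 in EY against N (SE 0.23, adjusted p = 0.0115). The YAP term missed the threshold without E1 (adjusted p = 0.0544) and without Y2 (0.0512), and EY against N missed it without N1 (0.0715), N2 (0.0518) or EY2 (0.0730).

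Gfpt1, the first and rate-limiting enzyme of the hexosamine pathway, was at 12.7 to 18.9 CPM in N and E and at 21.2 to 26.5 CPM in Y and EY. It rose by 0.75 for the YAP term (SE 0.18, adjusted p = 0.0374). Ugp2, which makes UDP-glucose, was at 32.4 to 37.6 CPM in N and E and at 43.2 to 57.0 CPM in Y and EY. It rose by 0.55 (SE 0.12, adjusted p = 0.0325). Both calls were weak. Gfpt1 passed only without N2 or Y1 and Ugp2 only without Y1 or EY2 when single libraries were left out, with adjusted p values up to 0.115 and 0.104. The other 3 precursor genes tested, Gnpnat1, Pgm3 and Uap1, did not pass.

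Of the 8 breakdown genes reported here, 4 were tested. Hexa, a subunit of a lysosomal glycosidase, followed the other transgene. It was at 3.11 CPM in N1, 1.49 in N2, 2.66 in Y1 and 3.46 in Y2. It was at 8.72 CPM in E1, 13.6 in E2, 10.6 in EY1 and 22.1 in EY2, so that all 4 libraries with E6-E7 lay above all 4 without it. The share of all genes with such a separation by E6-E7 was not counted. Hexa rose by 2.32 for the E6-E7 term (SE 0.32, adjusted p = 0.0327) and by 2.84 in EY against N (SE 0.47, adjusted p = 0.0139). The E6-E7 term missed the threshold when any 1 of the 8 libraries was left out (1.997 to 2.62, adjusted p = 0.0517 to 0.129). EY against N missed it without N1 (0.0672), N2 (0.0687) or EY2 (0.103). Cemip2, a cell-surface hyaluronan-degrading protein, was at 13.2 and 12.2 CPM in N and 7.33 and 5.84 in EY. It fell by 0.98 in EY against N (SE 0.22, adjusted p = 0.0275), a call that was lost without N1 (0.132), N2 (0.105) or EY2 (0.175). With a mitochondrial limit of 20% the value was -0.45 (adjusted p = 0.271). Hexa and Cemip2 were below 20 CPM in every group and were named after their values were seen. Hyal3 and Gusb did not pass.

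Of the other receptors, 4 of 7 were tested and 0 passed for any comparison. Hmmr, a hyaluronan-binding protein of the mitotic spindle, was at 23.2 to 62.6 CPM in N and E and at 36.0 to 82.5 CPM in Y and EY. The remaining 3 tested receptors were Stab1, Tlr2 and Tlr4. Of the 16 hyaluronan-binding matrix proteins only Vcan and Tnfaip6 were counted well enough to be tested, and 0 passed. Among the proteins that tie Cd44 to the cell cortex or regulate its splicing, 6 of 6 were tested. Msn (moesin), which links Cd44 to actin, was at 87.5 CPM in N1, 75.0 in N2, 135.2 in EY1 and 163.2 in EY2. It rose by 0.90 in EY against N (SE 0.20, adjusted p = 0.0256), and the call was lost without N1 (0.111), N2 (0.127) or EY2 (0.145). In EY against E it rose by 0.94 (adjusted p = 0.0259). Among cells with a Krt13 share of 10% or more its value in EY against N was 0.27 (adjusted p = 0.473). Ezr, Rdx, Nf2, Esrp1 and Esrp2 did not pass.

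**Figure D5:**
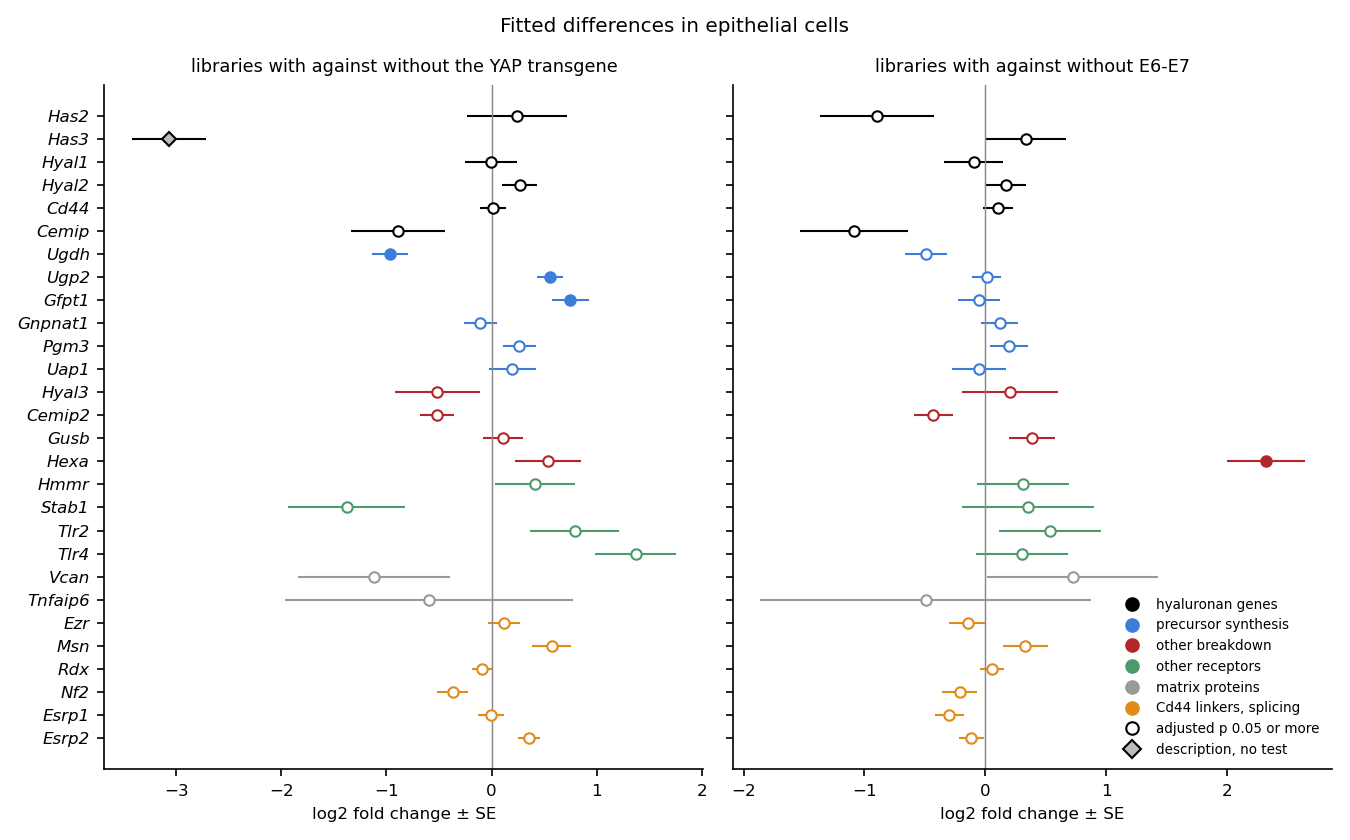
Points give the fitted log2 fold change with its SE (bars) of 6 hyaluronan genes and 22 genes of related lists in epithelial cells, for the YAP term (left) and the E6-E7 term (right) of a model over 8 libraries, filled where the adjusted p was under 0.05. The grey diamond of Has3 at -3.07 is a description without a test, Ugdh was at -0.97, and Hexa stood at 2.32 on the right.

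The genes whose level was most like that of a member over the 8 epithelial libraries were found among 5810 genes by Pearson correlation of log2(CPM + 1). For Has3 these were Taldo1 (r = 0.970), Ccdc50 (0.968), Hmgn2 (0.966), Sfrp1 (0.965) and Dicer1 (0.963). Sfrp1, a secreted Wnt antagonist, ranged from 62.6 to 96.1 CPM in the N and E libraries and from 7.56 to 21.6 CPM in the Y and EY libraries. Taldo1, an enzyme of the pentose phosphate pathway, differed far less, at 214.4 to 227.6 CPM against 151.3 to 184.1 CPM. For Hyal2 they were Atxn2l (0.957), Cs (0.928), Mrpl9 (0.909), Usf2 (0.901) and Ccl11 (0.895). For Cd44 they were Hnrnpa0 (0.938), Cfl1 (0.933), Cdkn3 (0.927), Dusp7 (0.924) and Syncrip (0.913). The 8 points share libraries, depth and the division by transgene, and these values are a description only.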

How the data were processed

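Single cells of tongue epithelium from 8 libraries had been sequenced with a 10x Genomics 3' kit. The authors aligned and counted the reads with Cell Ranger 5.0.0 on mm10, and the deposited files hold raw UMI counts per gene and cell, with no normalization, as the file headers and labels show. The labels name kit v2 and the methods another version. A 3' count does not tell isoforms of Cd44 apart.

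Kept cells had 1000 to 5500 genes, no more than 30000 UMIs, and mitochondrial genes at 7% of UMIs or less. No doublet caller was run, and 479 Ptprc-positive cells also passed the keratin gate. At the gate, 51 cells lay just inside (0.5 to 0.6%) and 47 just outside (0.4 to 0.5%). UMIs were summed per library and cell class. Sums were tested with edgeR 4.0.16 (R 4.3.3; filterByExpr, TMM, quasi-likelihood F test, Benjamini-Hochberg adjustment over all genes, threshold 0.05), in a fit of all 8 libraries with group means or with 2 transgene terms. A term gives a log2 fold change. DESeq2 1.42.0 was an alternative. CPM were taken over all UMIs of the class. The script was tested on simulated data.

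The members and the lists were chosen with earlier results of these data known. A gene of the breakdown list is not reported here and is left out of the list counts. Named were all members, per comparison up to 3 list genes higher and 3 lower with the largest called change and at least 20 CPM in 1 group, the 5 genes most like each member at 20 CPM or more, and Yap1 and Mcm2. The p-values rest on the spread between libraries, with information on it shared over genes. With group means this is the spread between the 2 libraries of each group, pooled over all groups in the fit. With the 2 transgene terms it also holds any interaction of the transgenes. Coordinates are from the GENCODE annotation of GRCm38, matched by gene ID. Alternatives were another scaling, DESeq2, no low-count filter, other cell limits, other gates, Krt13 classes and leaving out each library.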

Additional observations from a re-analysis of the deposited data

Results flagged for a closer look

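Cd44 in epithelial cells lay in opposite orders when the YAP transgene was added without and with E6-E7, over 2 libraries per group. Such orders were looked for among the members only. How many of all genes show them was not counted, so nothing is read from the order alone. It was lower in both Y libraries (141.7 and 150.9 CPM) than in both N libraries (177.7 and 165.6 CPM), and higher in both EY libraries (196.3 and 173.9 CPM) than in both E libraries (173.1 and 153.1 CPM). The interaction was 0.51 on the log2 scale (SE 0.18, unadjusted p = 0.0250 and adjusted p = 0.381, edgeR), so the difference between the 2 effects did not pass the threshold. Over 20 alternatives it lay between 0.32 and 0.73, with adjusted p values from 0.187 to 0.843.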

How the results depend on the processing

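The YAP term of Has3 lay between -3.60 and -2.77 over 20 alternatives, a description. The counts of members in Y against N, in EY against N and for the YAP term turn on the Has3 values behind the choice of genes and are no support for them. The number of members called in Y against N was 0, and 1 (Has3) with DESeq2, with no low-count filter, with no upper cell limits, with a mitochondrial limit of 20%, with immune markers at most 0.1% and with a keratin gate of 2%. When single libraries were left out it was 0 to 1, with 1 only without EY2. For EY against N it was 1, and 3 (Cemip, Has3 and Hyal2) with no upper cell limits, 0 with a Krt13 share of 10% or more, and 0 to 1 with libraries left out (0 without N1, N2 or EY2). For EY against E it was 1, and 2 (Has3 and Hyal2) with no upper cell limits, 0 with a Krt13 share of 10% or more, 0 with the 4 E and EY libraries alone, and 0 to 1 with libraries left out (0 without E1, E2 or EY2). For the YAP term it was 1, and 2 with no upper cell limits. The causes were not tested. Counts over all genes moved more: 2550 genes in EY against N became 5 without N1, 271 without N2 and 6042 with no upper cell limits, and 1217 for the YAP term became 324 without E1 and 6131 with no upper cell limits. In Y against N 62 became 0 without N1 and 1504 with no upper cell limits, in E against N 33 became 0 without N1 and 367 with no low-count filter, for the E6-E7 term 55 became 1 without Y1 and 765 with no low-count filter, in EY against E 2228 became 3 without E2 and 5729 with no upper cell limits, and for the interaction 0 became 672 with no low-count filter.

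Of 600 alternatives for single genes, 505 kept direction and side of the threshold, 52 lost the call, 11 gained one and 32 turned direction. Those that turned were never past the threshold. Hyal1 had a YAP term of -0.0039, which was 0.013 with RLE scaling, 0.054 with DESeq2, 0.13 with no upper cell limits, 0.018 with a minimum of 200 genes, 0.0029 with a mitochondrial limit of 20%, 0.21 with a Krt13 share of 10% or more, 0.14 with a 2% keratin gate, 0.019 with a reduced immune list, and -0.17 to 0.18 with libraries left out. Its E6-E7 term was 0.027 with the 2% gate and -0.26 to 0.083 with libraries left out. The YAP term of Cd44 was -0.0048 with no low-count filter, -0.25 with a Krt13 share of 10% or more, -0.13 with the 2% gate and -0.069 to 0.099 with libraries left out, its E6-E7 term -0.0032 with no upper cell limits, and EY against E -0.039 with a Krt13 share of 10% or more. The E6-E7 term of Hyal2 was -0.13 with a Krt13 share of 10% or more and -0.052 with the 2% gate. The YAP term of Has2 was -0.30 with the 2% gate and -0.35 to 0.54 with libraries left out. The interaction of Has3 was 0.023 with DESeq2 and -0.76 to 0.82 with libraries left out. For Cd44 in Ptprc-positive cells, the YAP term was -0.25 in Cd3e-positive cells and 0.05 to 0.65 with libraries left out, and the E6-E7 term was -0.28 in Cd3e-positive cells and -0.16 to 0.43 with libraries left out. The 2% gate, the reduced immune list, the split by Yap1 UMIs and EY against E were added after seeing the data. A keratin gate of 5% was planned and could not be fitted, since it left too few cells. No paired analysis was possible because the groups share no replicate numbers in the labels. EY1, with 170 epithelial cells kept and 481 without the upper cell limits, restricts every EY value.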
